A study of Homo sapiens with 4 samples.

Results

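The genes described here are 10 factors and target genes of the YAP-TEAD pathway. They were chosen by symbol, and all 10 were listed in each of the 4 deposited tables, among 27629 genes listed in at least 1 table. YAP1 and WWTR1 (whose protein is called TAZ) are transcriptional coactivators, TEAD1 and TEAD4 are the DNA-binding factors they act through, and LATS2 is a kinase that restrains them and is itself a target gene. CYR61 (now CCN1), CTGF (now CCN2), ANKRD1, AMOTL2 and AXL are target genes. The cells were UM-UC-3, a human line from a bladder cancer. They were transfected with 75 nM siRNA and their total RNA was sequenced 48 h later, in 1 library per condition. The conditions were control siRNA, a mixture of 2 siRNAs against hnRNPK, a mixture of 2 against lncRNA-LBCS and a mixture of 2 against PTBP1. hnRNPK and PTBP1 are RNA-binding proteins, and lncRNA-LBCS is a long non-coding RNA. All 4 cultures, the control included, received siRNA with a lipid transfection reagent, and no untransfected library was analysed here.

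In the Hippo pathway, the kinases STK3 and STK4 activate LATS1 and LATS2, which phosphorylate YAP and TAZ and keep them out of the nucleus. Without that phosphorylation YAP and TAZ enter the nucleus, bind TEAD factors and raise the transcription of target genes such as CTGF and CYR61. Their activity follows cell density, cell shape and tension in the actin cytoskeleton, so mRNA levels of YAP1 and WWTR1 do not by themselves give the activity of the proteins. Neither phosphorylation nor location of the proteins was measured in these libraries.

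Levels are given as CPM, a gene's reads scaled to the total reads on the genes listed in that library. The reads behind each value were recovered from the tables, and the libraries held 54301152 to 70232674 reads. Each condition had 1 library, so the spread between cultures is unknown and no test across conditions was possible. Intervals are 95% exact intervals of the reads and cover counting error only. With si-hnRNPK, HNRNPK was at 187.8 CPM against 783.1 CPM in control, 0.240 times (interval 0.235 to 0.245). With si-PTBP1, PTBP1 was at 89.7 CPM against 280.0 CPM in control, 0.320 times (0.310 to 0.331). The gene that both siRNAs of the si-lncRNA-LBCS-labelled library match, AL022068.1, had 103 reads there and 110 reads in control, 0.818 times (0.619 to 1.08). AL022068.1 was at 1.5 CPM in that library and 1.8 CPM in control. It was at 3.4 CPM with si-hnRNPK (186 reads) and 3.8 CPM with si-PTBP1 (214 reads). The siRNA target was therefore not lower than in control beyond counting error, and that library is named after its label throughout. Of 16 epithelial and urothelial marker genes, 4 reached 1 CPM in the control library, among them KRT8 and KRT18, and the uroplakins UPK1A, UPK1B and UPK2 stayed below 1 CPM. VIM, a mesenchymal filament gene, was highest in control, at 2343 CPM, and lower in each knockdown library, at 1417 to 1700 CPM. The summed mesenchymal and fibroblast list, most of it VIM, was at 2391 CPM in control and 1485 to 1779 CPM in the others. CDH2 of that list went the other way, at 47.1 CPM in control and 66.9 to 78.6 CPM in the others. PDGFRB was at 0.538 CPM in control and 1.73 CPM with si-PTBP1. The summed epithelial and urothelial list was at 190.7 CPM in control, 155.5 CPM with si-hnRNPK and 188.5 to 218.8 CPM in the others. Of its 5 genes at 1 CPM or more in control or with si-hnRNPK, 3 were above and 2 below control with si-hnRNPK. KRT18 went from 121.4 to 75.2 CPM and KRT7 from 2.85 to 1.42 CPM. KRT8 went from 63.0 to 71.9 CPM and PPARG from 2.33 to 3.74 CPM. The part of these marker differences in the results below was not tested. TP63, a basal epithelial factor, was called higher with si-hnRNPK and si-PTBP1, at 2.50 and 2.37 CPM from 0.342 CPM, and COL1A1, a fibroblast collagen, with si-PTBP1, at 2.25 CPM from 0.407 CPM. Both genes lay below 1 CPM in control, and a call needs 1 CPM in at least 1 library, so they could only be called higher. Both calls of TP63 were lost against the geometric mean described below. Of 7 white blood cell markers, PTPRC, CD3E and LYZ were listed in no table, and the summed level of the list was 0.342 to 2.86 CPM. Most of it was ITGAM, at 0.978 CPM in control, 2.78 CPM with si-hnRNPK and 0.285 to 0.589 CPM in the others. The change of ITGAM with si-hnRNPK was 0.93, under the threshold of 1 used below, and 1.02 with the scaling described below.

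The promoter of CTGF is shown because CTGF had the largest change of the 10 genes and because its promoter is a textbook example of TEAD binding. Promoter windows of 300 bases, from 250 before to 50 after the start site, were taken from RefSeq on GRCh38.p14 and held 7 of the 10 genes in 10 windows. The genes without a window were TEAD1, TEAD4 and CYR61. The TEAD motif was searched as CATTCC on both strands, which reads GGAATG on the other strand, and the matches are in capitals. CTGF held 3 matches, at positions -169, -104 and -95 from the start site, and 0.128% of the 35116 promoter windows held 3 or more. ANKRD1 held 2 matches, at -220 and -128, and is printed beside CTGF as a target gene that was close to undetected. YAP1, LATS2, 1 of the windows of AMOTL2 and 1 of those of AXL held 1 match each, and both windows of WWTR1 held 0. A match occurred in 4928 of all windows. The AP-1 motif, searched as TGANTCA, was found only in ANKRD1 among these windows and in 7.71% of all windows, and the CArG box bound by SRF was found in 0 of them and in 1.29% of all windows. These matches describe letters and are not measured binding sites.
CTGF, chr6:131951323-131951622, minus strand: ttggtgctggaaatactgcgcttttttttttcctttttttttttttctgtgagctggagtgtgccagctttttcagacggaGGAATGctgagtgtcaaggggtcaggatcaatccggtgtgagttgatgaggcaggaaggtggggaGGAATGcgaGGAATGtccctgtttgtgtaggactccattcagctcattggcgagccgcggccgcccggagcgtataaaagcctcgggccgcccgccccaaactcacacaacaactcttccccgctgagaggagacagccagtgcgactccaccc
ANKRD1, chr10:90921038-90921337, minus strand: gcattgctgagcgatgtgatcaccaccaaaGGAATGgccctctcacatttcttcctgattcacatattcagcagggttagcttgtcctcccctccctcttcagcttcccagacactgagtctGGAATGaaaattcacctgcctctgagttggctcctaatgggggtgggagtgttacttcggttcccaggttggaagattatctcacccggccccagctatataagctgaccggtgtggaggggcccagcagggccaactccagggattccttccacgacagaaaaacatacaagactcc

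Since siRNAs can also lower mRNAs that pair with their seed, the matches of the 7 siRNAs to the 10 genes are given next. The guide strands are written 5' to 3' as the reverse complement of the 19 paired bases of the siRNA sequences in the labels, with the seed (bases 2 to 8) in capitals. Only some of the guides and windows with matches are shown. The windows of target sequence are from GENCODE release 29 on GRCh38, in the longest annotated 3' UTR of each gene, with the 7 bases that pair with the seed in capitals. YAP1 held 2 matches to the second siRNA against hnRNPK, and TEAD4 and TEAD1 held 1 each. ANKRD1 held 2. TEAD1 also held 2 matches to the second siRNA of each of the other knockdown libraries and 1 to the control siRNA, which LATS2 matched as well. CTGF held 1 match to the first siRNA of the si-lncRNA-LBCS-labelled library, and YAP1 and WWTR1 held 1 each to the first siRNA against PTBP1. CYR61, AMOTL2 and AXL held no match to any of the 7 siRNAs, and none of the 10 genes matched the first siRNA against hnRNPK. Of 11942 expressed genes, 23.0% held a match to the second siRNA against hnRNPK, 10.2% to the first of the si-lncRNA-LBCS-labelled library and 14.8% to the first against PTBP1, so such matches are common. For the control siRNA the share was 3.63%, beside 2 of the 10 genes.
si-hnRNPK, second guide: aUCUCUUCuagauggaggc
YAP1, chr11:102230434-102230454, plus strand: ctgatttGAAGAGAtagctga
YAP1, chr11:102231547-102231567, plus strand: tttacagGAAGAGAtgatgta
TEAD4, chr12:3040496-3040516, plus strand: gagggggGAAGAGAcgtgtgt
si-lncRNA-LBCS, first guide: gAUCAGACaaaugagcagc
CTGF, chr6:131948499-131948519, minus strand: aaagcttGTCTGATcgttcaa
si-PTBP1, first guide: uUGUACUUgacguugaggc
YAP1, chr11:102232399-102232419, plus strand: gtcacctAAGTACAcccacaa

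With si-hnRNPK, the secreted target genes CTGF and CYR61 rose, while the other 7 measured genes of the 10 stayed under the threshold. Changes are differences in log2(CPM + 1), on which low genes change less than their reads do, and a gene was called when it reached 1 CPM in at least 1 of both libraries and changed by 1 or more. Of the 10 genes, 9 reached 1 CPM, 2 of them were called higher and 0 were called lower. Over all 13672 genes tested, 3.55% were called higher and 3.93% lower. The median change of the 9 genes was 0.17, against -0.11 over all genes. Scaling by the median of ratios, which sets the median of all genes near 0, shifted changes with si-hnRNPK upwards, by 0.11 for well-expressed genes and less for low ones, and left the direction of each of the 9 genes as it was.

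CTGF (ENSG00000118523, chromosome 6, 131948176 to 131951373) encodes a secreted matricellular protein of the CCN family that acts on adhesion and matrix production. Its level was 19.5 CPM in the control library, 86.3 CPM with si-hnRNPK, 17.9 CPM in the si-lncRNA-LBCS-labelled library and 25.2 CPM with si-PTBP1, from 1197, 4686, 1260 and 1413 reads. The si-hnRNPK library stood above the other 3. CTGF rose to 4.43 times the control level with si-hnRNPK (interval 4.15 to 4.72), a change of 2.09 on the log2(CPM + 1) scale, and 57 of the 13672 genes, or 0.417%, rose by more. The si-hnRNPK library was also 3.42 times as high as the si-PTBP1 library (3.23 to 3.64) and 4.81 times as high as the si-lncRNA-LBCS-labelled library (4.52 to 5.12). In the si-lncRNA-LBCS-labelled library, whose first siRNA matches the CTGF 3' UTR, CTGF was at 0.920 times the control level (0.849 to 0.996). With si-PTBP1 it was at 1.29 times, a change of 0.35 (interval 0.25 to 0.46). The antisense gene AL133346.1 shares 195 exon bases with CTGF and was listed only in the si-lncRNA-LBCS-labelled library, at 0.0712 CPM.

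CYR61 (ENSG00000142871, chromosome 1, 85580761 to 85583962) encodes a second CCN protein, which binds integrins. It was at 47.1 CPM in the control library, 129 CPM with si-hnRNPK, 34.8 CPM in the si-lncRNA-LBCS-labelled library and 44.4 CPM with si-PTBP1, from 2891, 7016, 2445 and 2487 reads. As for CTGF, the si-hnRNPK library was the highest of the 4. CYR61 rose to 2.74 times the control level (interval 2.63 to 2.87), a change of 1.44 on the log2(CPM + 1) scale, and 164 genes of those tested rose by more. It was at 0.739 times the control level in the si-lncRNA-LBCS-labelled library (0.700 to 0.780) and 0.942 times with si-PTBP1 (0.892 to 0.994). CYR61 thus lay below control in the libraries without hnRNPK siRNA, and CTGF was below control in 1 and above it in the other. The change of CTGF with si-PTBP1, 0.35 against control, was -0.30 against the geometric mean over the remaining 3 libraries. That mean includes the si-hnRNPK library, with CTGF at 86.3 CPM. With si-PTBP1, CTGF was 1.405 times as high as in the si-lncRNA-LBCS-labelled library (1.301 to 1.517). Per kilobase of exon, CYR61 was 2.30 times as high as CTGF in the control library and 1.43 times as high with si-hnRNPK. The other CCN genes were low: WISP3 was at 2.28 to 4.90 CPM in the 4 libraries, and NOV, WISP1 and WISP2 did not exceed 1.11 CPM in any library.

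**Figure D1:**
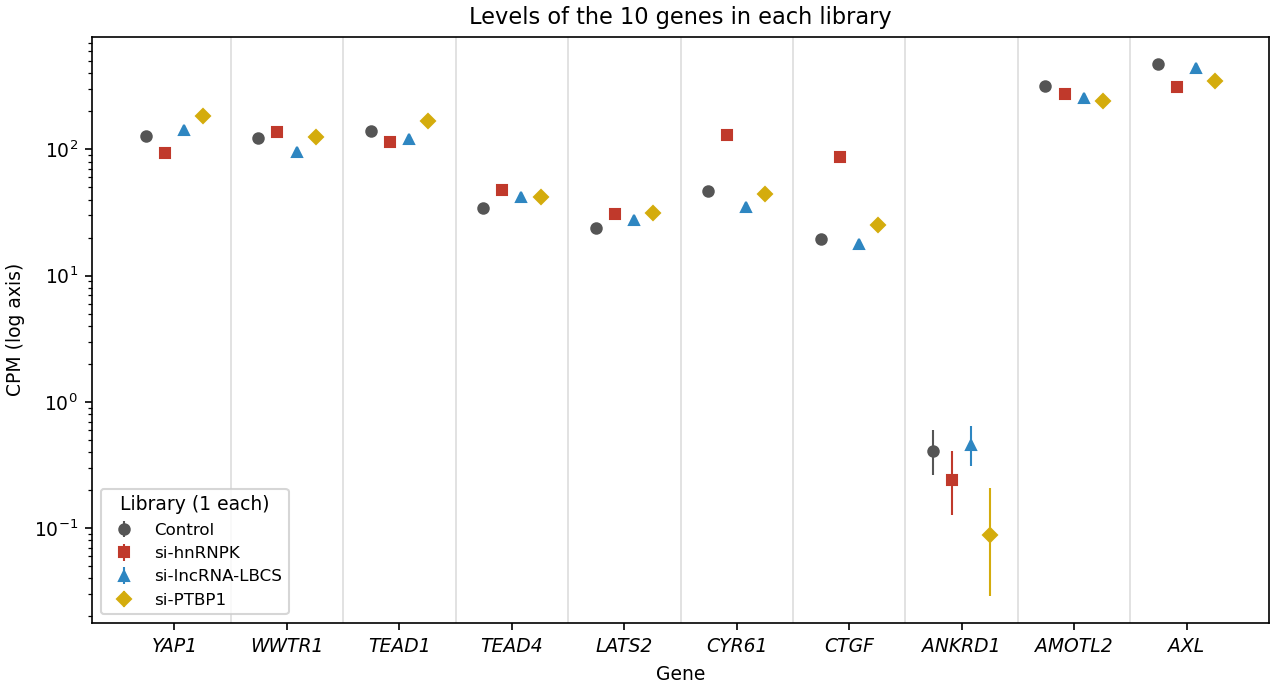
Level of each of the 10 genes in CPM (log axis) in the 4 libraries, 1 library per condition, with 95% exact Poisson intervals of the reads as bars, which are mostly hidden by the markers. CTGF and CYR61 with si-hnRNPK stand at 86.3 and 129 CPM, above the other 3 libraries, and ANKRD1 lies below 1 CPM in every library.

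The third classical target gene, ANKRD1, was not raised with them. ANKRD1 (ENSG00000148677, chromosome 10, 90912096 to 90921276) encodes an ankyrin repeat protein of muscle and stressed cells. It had 25 reads in the control library, 13 with si-hnRNPK, 32 in the si-lncRNA-LBCS-labelled library and 5 with si-PTBP1, or 0.407, 0.239, 0.456 and 0.0892 CPM. It therefore reached 1 CPM in no library and entered no count of called genes. At this depth its level with si-hnRNPK was 0.588 times the control level, with an interval from 0.276 to 1.19 that includes no difference. Its 5 reads with si-PTBP1 were 0.219 times the control level (0.0655 to 0.582), lower beyond counting error.

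AXL and AMOTL2 were the 2 most abundant of the 10 genes per length in the control library, and both were lower than in control in each of the 3 knockdown libraries. AXL (ENSG00000167601, chromosome 19, 41219203 to 41261766), a receptor tyrosine kinase linked to invasion and drug resistance, had 474.4 CPM in control and 310.8 CPM with si-hnRNPK. The remaining libraries held 438.7 CPM (labelled si-lncRNA-LBCS) and 346.7 CPM (si-PTBP1), so the control library was the highest of the 4. Its level was 0.655 times control with si-hnRNPK (interval 0.643 to 0.668), 0.731 times with si-PTBP1 (0.718 to 0.744) and 0.925 times in the si-lncRNA-LBCS-labelled library (0.910 to 0.940). Its change of -0.61 with si-hnRNPK reached 1.5-fold downwards against control, but not with scaling (-0.50) or against the geometric mean over the remaining 3 libraries (-0.42), and 14.8% of all genes were lower by more.

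AMOTL2 (ENSG00000114019, chromosome 3, 134355874 to 134375479) encodes an angiomotin that binds YAP at cell junctions. It was at 316 CPM in the control library, 273 CPM with si-hnRNPK, 257 CPM in the si-lncRNA-LBCS-labelled library and 242 CPM with si-PTBP1. The control library was again the highest, and the changes on the log2(CPM + 1) scale were -0.21, -0.30 and -0.38. With si-PTBP1, 7.98% of all genes were lower by more. The 3 comparisons share the control library, so its own level enters each of these values. When the reference was instead the geometric mean over the remaining 3 libraries, AMOTL2 with si-hnRNPK and AXL in the si-lncRNA-LBCS-labelled library changed sign.

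YAP1 (ENSG00000137693, chromosome 11, 102110461 to 102233423) moved in the opposite direction to its target genes CTGF and CYR61 with si-hnRNPK. It was at 129 CPM in the control library, 93.7 CPM with si-hnRNPK, 144 CPM in the si-lncRNA-LBCS-labelled library and 184 CPM with si-PTBP1, from 7905, 5090, 10089 and 10293 reads. The si-hnRNPK library was the lowest and the si-PTBP1 library the highest of the 4. YAP1 was at 0.728 times the control level with si-hnRNPK (interval 0.702 to 0.754), a change of -0.45 that did not reach the threshold. Of all genes tested, 23.2% were lower by more. The change was -0.34 with median-of-ratios scaling. It was -0.68 against the geometric mean over the remaining 3 libraries, which include that with si-PTBP1. With si-PTBP1 YAP1 was at 1.43 times (1.38 to 1.47), a change of 0.51, which is below the threshold and became 0.38 with median-of-ratios scaling. Between both knockdown libraries YAP1 differed further: the si-hnRNPK level was 0.511 times that with si-PTBP1 (0.494 to 0.528). The 3' UTR of YAP1 holds the 2 matches to the second si-hnRNPK guide printed above, and their part in the lower level was not tested. It also holds 1 match to the first si-PTBP1 guide, in the library in which YAP1 was highest.

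WWTR1 (ENSG00000018408, chromosome 3, 149517235 to 149736714), the gene of the paralogue TAZ, was at 123 CPM in the control library, 138 CPM with si-hnRNPK, 95.6 CPM in the si-lncRNA-LBCS-labelled library and 125 CPM with si-PTBP1. It was highest in the library in which YAP1 was lowest. Its changes were 0.17, -0.36 and 0.03 on the log2(CPM + 1) scale, and the last, whose counting interval includes 0, became -0.10 with median-of-ratios scaling. Per kilobase of exon, YAP1 was 1.40 times as high as WWTR1 in the control library, 2.01 times in the si-lncRNA-LBCS-labelled library and 1.96 times with si-PTBP1, but 0.908 times with si-hnRNPK. The si-hnRNPK library was thus the only one of the 4 in which WWTR1 exceeded YAP1 per length. WWTR1-AS1, on the opposite strand, shares 795 exon bases with WWTR1 and was at 2.56 to 4.01 CPM. The sources used here do not say whether reads were counted by strand.

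The TEAD factors did not change by 2-fold in any library. TEAD1 (ENSG00000187079, chromosome 11, 12674591 to 12944483) was at 141 CPM in the control library, 115 CPM with si-hnRNPK, 121 CPM in the si-lncRNA-LBCS-labelled library and 167 CPM with si-PTBP1, so that the library order was like that of YAP1 at both ends. TEAD4 (ENSG00000197905, chromosome 12, 2959330 to 3040673) had 34.2 CPM in control and was higher in each knockdown library, at 47.6, 42.0 and 41.9 CPM. Its level with si-hnRNPK was 1.39 times control (interval 1.31 to 1.47), and its 3' UTR holds a match to the second si-hnRNPK guide. TEAD1, which also holds a match to that guide, was at 0.82 times control with si-hnRNPK (0.79 to 0.84). The part of these matches in the levels was not tested. Per kilobase of exon, TEAD1 was at 0.909 times the level of TEAD4 in the control library and at 0.534 times with si-hnRNPK. LATS2 (ENSG00000150457, chromosome 13, 20973032 to 21061547) had 24.0 CPM in control and 30.8, 27.5 and 31.4 CPM with si-hnRNPK, in the si-lncRNA-LBCS-labelled library and with si-PTBP1. Like TEAD4, it was lowest in the control library, although its change of 0.19 in the si-lncRNA-LBCS-labelled library was -0.05 against the geometric mean over the remaining 3 libraries. The 3' UTR of LATS2 holds a match to the control siRNA, and the part of that match in its level was not tested.

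**Figure D2:**
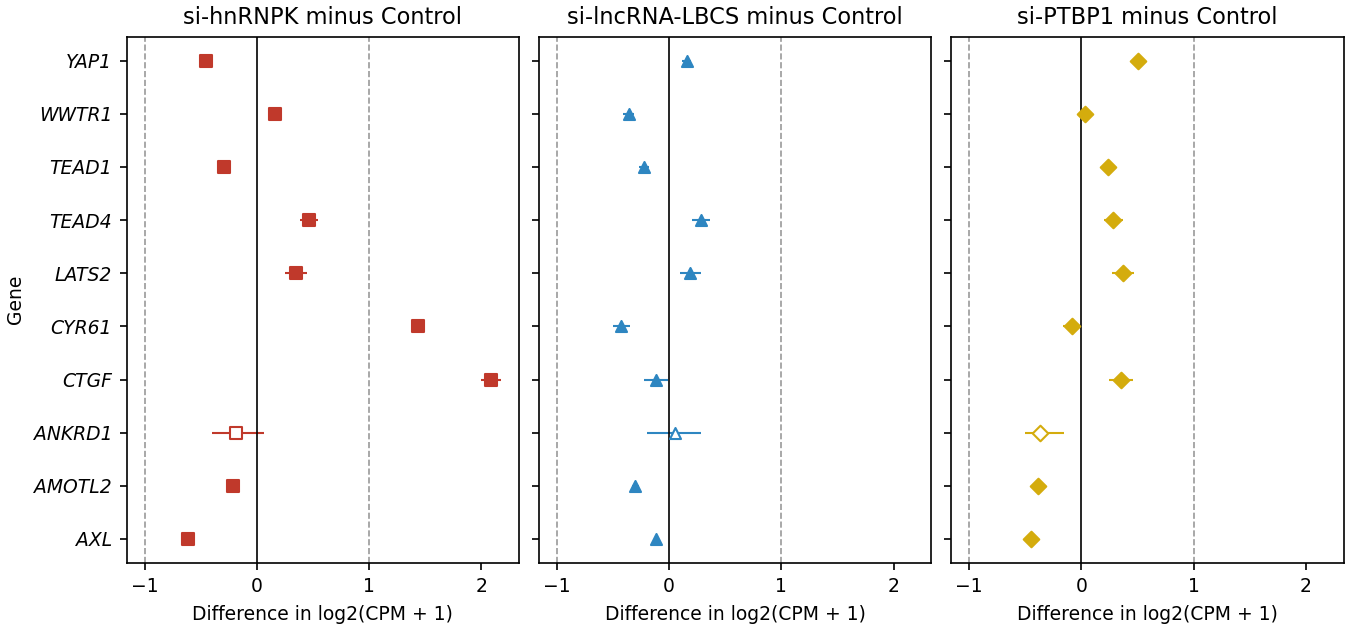
Difference in log2(CPM + 1) of each knockdown library against the control library, which all 3 panels share. Bars are 95% exact counting intervals, dashed lines mark a change of 1, and open markers are ANKRD1, which did not reach 1 CPM. CTGF at 2.09 and CYR61 at 1.44 with si-hnRNPK are the points beyond the dashed lines.

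In the other knockdown libraries 0 of the 9 measured genes were called. In the si-lncRNA-LBCS-labelled library, 3 were above and 6 below control, with changes from -0.43 for CYR61 to 0.29 for TEAD4. Over all genes, 48.2% were above control there. Of the 13492 genes tested there, 0.378% were called higher and 1.01% lower. With si-PTBP1, 6 were above and 3 below control, with changes from -0.45 for AXL to 0.51 for YAP1. Over all genes, 63.5% were above control with si-PTBP1. After median-of-ratios scaling, 5 of the 9 were above and 4 below. Of the 13855 genes tested there, 2.92% were called higher and 0.613% lower. With calls this rare in all genes, a count of 0 among 9 does not set the pathway apart.

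Levels can be compared between genes only per length, here as CPM per kilobase of the union of annotated exons. In the control library the order was AXL at 92.0, AMOTL2 at 52.9, YAP1 at 20.5, CYR61 at 19.2, TEAD4 at 15.1, WWTR1 at 14.6, TEAD1 at 13.7, CTGF at 8.34, LATS2 at 4.30 and ANKRD1 at 0.206 CPM per kilobase. TEAD4 and WWTR1 did not differ beyond counting error, while the intervals of the other neighbours in that order did not overlap. With si-hnRNPK, CYR61 moved from place 4 to place 2, at 52.6, and CTGF from place 8 to place 4, at 36.9 CPM per kilobase. In the other knockdown libraries CYR61 was in place 5 and CTGF stayed in place 8. The annotation behind the deposited reads is not given in the sources used here, so these lengths may differ from those of the authors.

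**Figure D3:**
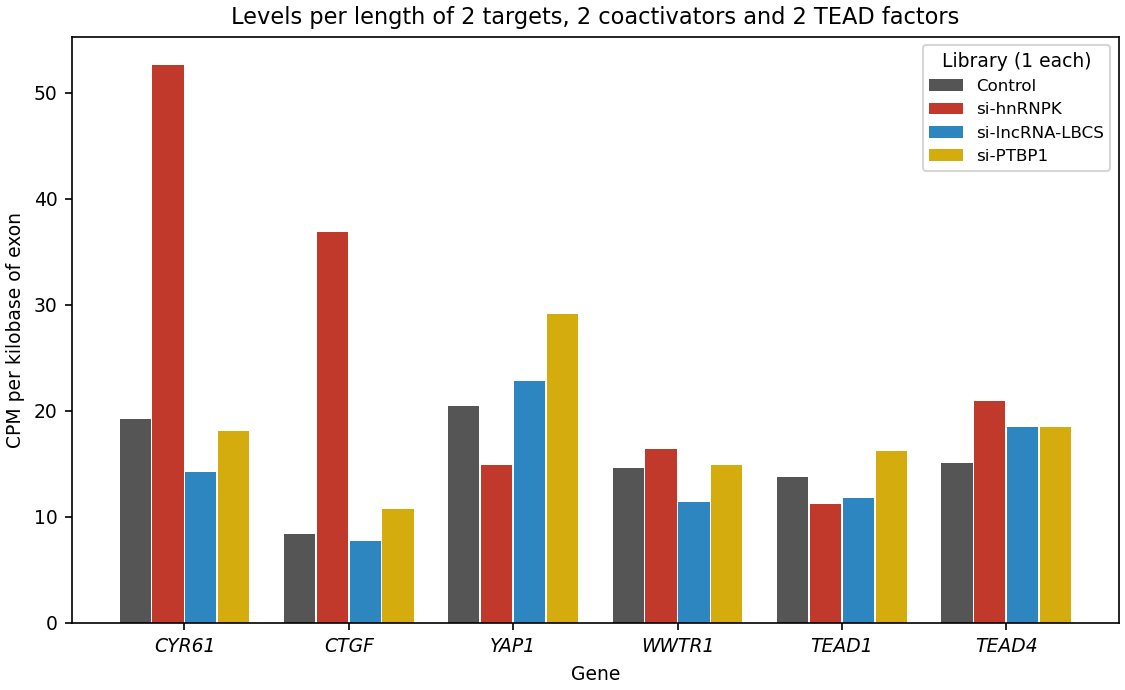
CPM per kilobase of exon of CYR61, CTGF, YAP1, WWTR1, TEAD1 and TEAD4 in the 4 libraries, with 1 bar per library and no error, since there are no replicates. With si-hnRNPK, CYR61 at 52.6 and CTGF at 36.9 stand above all 4 factors, while in the control library CTGF at 8.34 is the lowest of the 6 genes.

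A list of 19 further YAP-TEAD target genes moved in both directions with si-hnRNPK. Of 18 that were measured, 3 were called higher and 2 lower, against 3.55% and 3.93% of all genes, and their median change was -0.10 beside -0.11 over all genes. IGFBP3, a secreted carrier of insulin-like growth factors, rose from 10.98 to 74.8 CPM, 6.81 times the control level (interval 6.28 to 7.40). It was at 12.4 CPM in the si-lncRNA-LBCS-labelled library and 17.0 CPM with si-PTBP1. RBMS3, an RNA-binding protein gene, rose from 2.27 to 16.0 CPM, and was also called higher in the si-lncRNA-LBCS-labelled library and with si-PTBP1, at 6.27 and 9.27 CPM. The control library held 139 of its reads and was the lowest of the 4. F3, which encodes tissue factor, rose from 4.64 to 10.3 CPM, a change of 1.01 at the edge of the threshold. Against the geometric mean over the remaining 3 libraries, F3 with si-hnRNPK was at 0.83 and RBMS3 at -0.19 in the si-lncRNA-LBCS-labelled library and 0.47 with si-PTBP1, all under the threshold. GADD45B and CCDC80 with si-hnRNPK were under the threshold, at 0.99 and 0.90. With median-of-ratios scaling they were past it, at 1.10 and 1.01.

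The called falls in that list were those of DOCK5 and NT5E. DOCK5, an activator of the GTPase Rac, fell from 181.5 to 81.0 CPM, 0.446 times the control level (0.431 to 0.462), a change of -1.15 that was -0.86 against that geometric mean. NT5E, the cell-surface enzyme CD73 that makes adenosine, fell from 1220 to 572 CPM, a change of -1.09 that became -0.98 with median-of-ratios scaling, under the threshold. The target genes with si-hnRNPK thus covered a range from -1.15 for DOCK5 to 2.66 for IGFBP3. MYOF, a membrane repair gene, had 432 CPM in control and between 371 and 597 CPM in the others.

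The upstream part of the pathway was measured nearly whole, and 1 gene of it was called with si-hnRNPK, a count near the 3.93% of all genes called lower. Of the 6 genes of the kinase core, LATS1 fell from 36.4 to 17.4 CPM, 0.479 times the control level (interval 0.443 to 0.517), while LATS2 was at 1.29 times. The change of LATS1 was -1.02, and it was -0.92 after median-of-ratios scaling and -0.94 with the geometric mean as the reference, under the threshold. In the si-lncRNA-LBCS-labelled library LATS1 was at 24.8 CPM, and with si-PTBP1 at 44.9 CPM. STK4 and its core partner MOB1A were at 90.1 to 111 CPM and 97.4 to 133 CPM in the 4 libraries. Of 16 measured upstream regulators, 0 were called with si-hnRNPK or in the si-lncRNA-LBCS-labelled library. With si-PTBP1, FAT4, a large protocadherin, rose from 116 to 235 CPM, a change of 1.01 that became 0.89 with scaling and 0.82 against the geometric mean. FAT1, a further protocadherin, and TAOK1, a kinase, were at 278 to 451 CPM and 213 to 285 CPM. VGLL1, VGLL2 and AMOT were listed in no table. The remaining TEAD genes and the measured VGLL cofactors were not called in any library, with TEAD2 at 25.5 to 39.4 CPM and VGLL4 at 29.2 to 52.5 CPM. TYRO3 and MERTK, the relatives of AXL, and GAS6 and PROS1, ligands within this receptor family, were not called either.

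Actin cytoskeleton genes that depend on SRF, a factor whose activity also follows actin tension, were above control with si-hnRNPK in 9 of 11 measured. Over all genes, 41.6% were above control with si-hnRNPK. Of these 11, 4 were called higher, 0 were called lower and 7 stayed within the threshold, beside 3.55% and 3.93% of all genes, with a median change of 0.76 against -0.11 over all genes. TPM1, a tropomyosin, rose from 335 to 843 CPM, 2.52 times control (interval 2.48 to 2.56), and FHL2 rose from 74.8 to 199 CPM, 2.66 times (2.57 to 2.75). CNN2 rose from 102 to 214 CPM, and CNN1 from 14 reads to 241 reads, or from 0.228 to 4.44 CPM. CNN1 lay below 1 CPM in control, so it was counted only through libraries in which it was higher. It could only be called higher, never lower. The 4 called genes were higher than in control in the other libraries too. TPM1 was at 426.5 and FHL2 at 126 CPM in the si-lncRNA-LBCS-labelled library, and at 559 and 144 CPM with si-PTBP1. Against the geometric mean over the remaining 3 libraries, the changes of TPM1, FHL2 and CNN2 with si-hnRNPK were 0.97, 0.84 and 0.63, under the threshold. In the si-lncRNA-LBCS-labelled library 9 of the 11 were above control, with a median change of 0.20 against -0.01 over all genes. With si-PTBP1 10 of the 11 were above control, beside 63.5% of all genes. The median of the list with si-PTBP1 was 0.67 against 0.12 over all genes, and 1 gene was called, CNN1. Its change of 1.00 became 0.93 with scaling and 0.04 against the geometric mean. FLNA, a filamin, and ACTG1, an actin, were at 3473 to 5030 CPM and 2310 to 2639 CPM. Whether the cytoskeletal genes and CTGF or CYR61 moved for a shared reason was not tested.

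**Figure D4:**
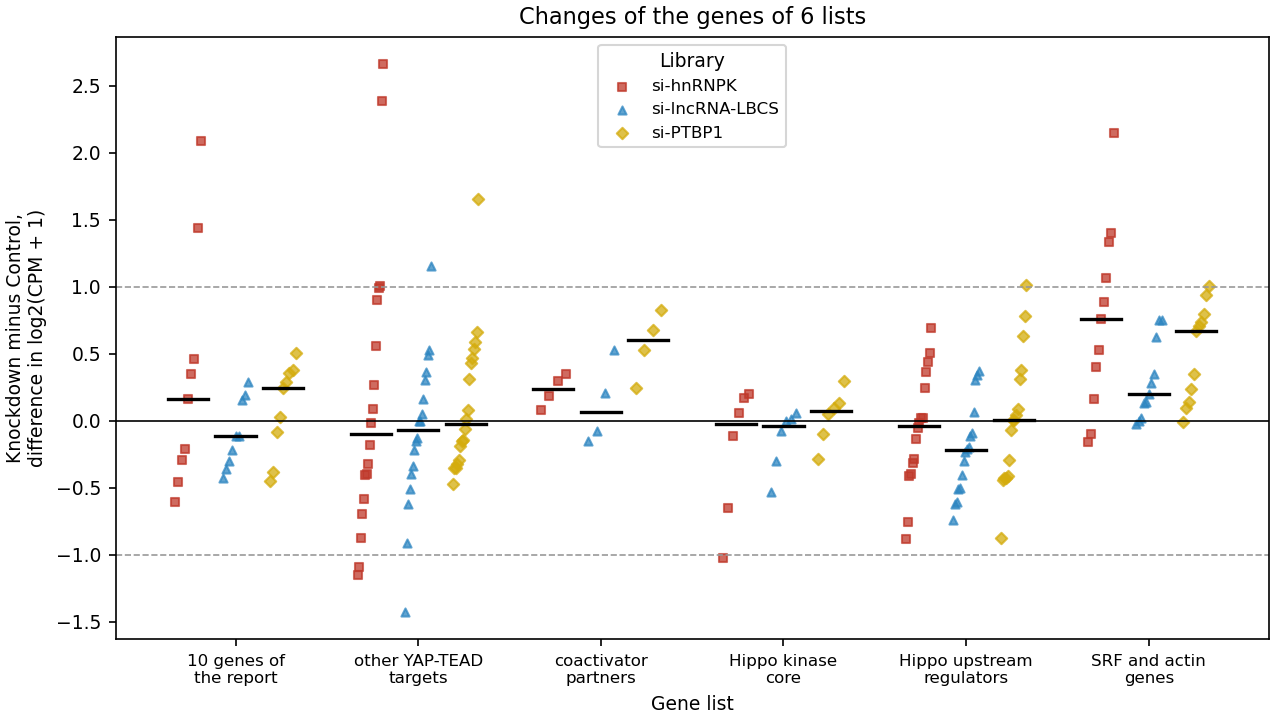
Difference in log2(CPM + 1) of each measured gene of 6 lists in the 3 knockdown libraries against the shared control library. Points are genes, black bars are medians and dashed lines mark a change of 1. With si-hnRNPK the other targets spread from -1.15 to 2.66 around a median of -0.10, and the SRF and actin genes have a median of 0.76.

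The genes whose changes in the 3 comparisons were closest to those of CTGF, by Euclidean distance over the 3 differences in log2(CPM + 1) among the 9451 genes that reached 10 CPM in any library, were TAP1, IFI35 and SLC16A9, at distances of 0.0865, 0.102 and 0.203. TAP1 was at 24.6 CPM in the control library, 114 CPM with si-hnRNPK, 23.2 CPM in the si-lncRNA-LBCS-labelled library and 31.1 CPM with si-PTBP1. Closest to CYR61 were RELB, RCAN1 and IRAK2, at distances of 0.196, 0.196 and 0.228, of which RELB was at 28.4, 70.6, 20.1 and 28.9 CPM in the same order of libraries. Closest to YAP1 were ZNF34, FRA10AC1 and BPGM, at 0.0645, 0.0720 and 0.0796. The likeness rests on 3 differences from 1 control library. In these bulk libraries, less RNA per cell and fewer cells that express a gene cannot be told apart.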

How the data were processed

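For each library, the authors deposited CPM values by Ensembl gene identifier, scaled to the reads on listed genes. Reads were 100-base pairs, and hg19 is named in the submitters' processing notes. The aligner, counter and annotation are not given in the sources used here. Values were whole multiples of 1 read, within 0.01 of a read for low values, for 100% of the genes with reads, and 308 genes in the control table carry a placeholder below 1 read. From these tables, changes were computed as differences in log2(CPM + 1) for genes that reached 1 CPM in either library compared, with a threshold of 1. Intervals are exact Clopper-Pearson (2 libraries) or Poisson intervals (1 library). As an alternative, reads were compared by a binomial test, with p-values adjusted by Benjamini-Hochberg over all genes, which compares libraries and not conditions and called 10870 of 13672 genes with si-hnRNPK, 9478 of 13492 in the si-lncRNA-LBCS-labelled library and 10182 of 13855 with si-PTBP1. Other alternatives were a pseudocount of 0.1 CPM, no filter or 5 CPM, 1.5-fold, median-of-ratios scaling over 12362 genes and a reference made as the geometric mean over the remaining 3 libraries.

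Members and lists were chosen with earlier results of these data known. Named genes were the members, the siRNA targets, list genes past the threshold in any comparison (at most 6 per list) with up to 2 of the highest CPM, and the 3 nearest genes of YAP1, CYR61 and CTGF. Other genes are named only as list members at low level or without a call. Some genes that the rule would name are not reported here. Symbols were matched by identifier. Gene models are from GENCODE release 29 on GRCh38 and promoters from RefSeq, and the authors' coordinates were not used. The scripts were tested on simulated data. Statistics used scipy 1.17.1, with pandas 2.3.3 and numpy 2.4.6 under Python 3.11.15, and plots matplotlib 3.10.9.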

Additional observations from a re-analysis of the deposited data

How the results depend on the processing

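The 2 called members with si-hnRNPK, CTGF and CYR61, were called under each alternative tried, and 0 were called in the other libraries. With a 1.5-fold threshold against control 3 members were called with si-hnRNPK. Among the 27 member values, scaling changed the sign of 1 (WWTR1 with si-PTBP1) and the geometric mean as the reference changed 4 (AMOTL2 with si-hnRNPK, CTGF with si-PTBP1, and LATS2 and AXL in the si-lncRNA-LBCS-labelled library). RBMS3 in the si-lncRNA-LBCS-labelled library was reversed to -0.19 against that mean. Counts of all called genes moved most. From 1023 with si-hnRNPK they became 1785 (pseudocount of 0.1), 675 (geometric mean) and 3517 (1.5-fold). From 187 in the si-lncRNA-LBCS-labelled library they became 518, 110 and 1333, and from 489 with si-PTBP1 966, 308 and 2105. Scaling changed the split with si-hnRNPK from 486 higher and 537 lower to 610 and 374, and with si-PTBP1 from 404 and 85 to 256 and 132. The median of the other target genes with si-hnRNPK, -0.10, was -0.16 without a filter, 0.0132 with scaling and 0.12 against the geometric mean. In the si-lncRNA-LBCS-labelled library, -0.07 became -0.13 at 5 CPM and -0.30 against that mean. With si-PTBP1, -0.02 became -0.15 with scaling and 0.0672 against that mean. The geometric mean includes the other knockdown libraries, so their levels enter each value against it, and scaling divides all genes of a library by a common factor. What else enters these shifts was not tested. No paired analysis was possible because each condition has 1 library. Depth limits ANKRD1, with 5 to 32 reads.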
